A study of Homo sapiens with 33 samples.

Results

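MCL1, BCL2, BCL2L1, BCL2L2 and BCL2A1 encode the anti-apoptotic proteins MCL-1, BCL-2, BCL-XL, BCL-W and BFL-1. They were selected by gene symbol, a rule that uses no measured value, though with earlier results of these data known. They are 5 of the 59428 entries of the count table. Poly(A) RNA was measured by 3′ tag sequencing (QuantSeq FWD, in which a transcript gives reads beside its poly(A) tail) in 33 libraries of 2 established triple-negative breast cancer lines, spelled MDA-MD-231 and MDA-MD-468 in the labels. The inhibitor experiment has 22 libraries of wild-type cells, 11 from each line: DMSO at 0 h, parental (untreated) at 0 h, and SY200, V50 or SY200/V50 at 3, 6 and 12 h. The series describes these agents as an inhibitor of CDK7, an inhibitor of CDK9 and their combination, but the labels do not say which agent acts on which kinase or what the numbers in their names measure. The knockout experiment has 11 MDA-MD-231 libraries: parental at 0 h, then at 72 h and again at 96 h an empty vector, a knockout of 1 kinase (CDK1 KO, CDK7 KO or CDK9 KO) and a double knockout (CDK7/9 KO). Within each experiment, each line, condition and time has 1 library, and no label says whether libraries came from separate cultures or whether a knockout is a clone or a pool. P-values therefore measure how far effects differed between lines or between times, not between repeats. In the inhibitor experiment the difference of DMSO from parental enters that spread too, and the controls for every inhibitor time were taken at 0 h.

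The anti-apoptotic BCL2 proteins sit on the outer mitochondrial membrane and hold back BAX and BAK1, the effectors that permeabilise it. BH3-only proteins such as BIM, PUMA and NOXA bind into a groove of the anti-apoptotic proteins and release that restraint. MCL-1 has a short-lived mRNA and a short-lived protein, so that its amount depends on continuing transcription, for which CDK9 (the kinase of the elongation factor P-TEFb) and CDK7 (the kinase of TFIIH) phosphorylate RNA polymerase II. BCL-XL is a longer-lived protein, and the anti-apoptotic proteins bind overlapping sets of BH3-only partners.

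Since the assay reads 3′ ends, the 30 bases around each gene's annotated poly(A) signal are shown; the counts carry no read positions, so use of other poly(A) sites was not examined. Gene models are GENCODE release 29 on GRCh38, each sequence is the gene's own strand in the 3′ UTR, and the capitals mark the hexamer AATAAA.
MCL1 (minus strand, chr1:150574559-150574588): ctgagaaaaaaaAATAAAtcttttattcaa
BCL2 (minus strand, chr18:63123352-63123381): attgtgaagaaaAATAAAgtacagtgtgag
BCL2L1 (minus strand, chr20:31664464-31664493): gtgcagttcagtAATAAActgtgtttactc
BCL2L2 (plus strand, chr14:23311714-23311743): ttaaaaacaataAATAAAgcccagaagttt
BCL2A1 (minus strand, chr15:79960899-79960928): ccccatgtaatgAATAAAttgtatgtattt
AATAAA or ATTAAA stood in the last 50 bases of 76.6% of 18622 annotated genes, so this hexamer does not set the 5 genes apart.

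AU-rich pentamers (ATTTA), a feature of many short-lived mRNAs, were searched on the transcript strand of the 3′ UTR, overlaps included. The 3′ UTR of MCL1 (gene at chr1:150574551-150579738) is 2824 bases long with 10 pentamers, 4 of them in its last 1000 bases. That of BCL2 (chr18:63123346-63320128) is 5279 bases long with 13 pentamers, 2 in the last 1000 bases, and holds 1 nonamer TTATTTATT, 5017 bases from the end. BCL2L1 (chr20:31664452-31723989) has 1497 bases with 3 pentamers and BCL2L2 (chr14:23298790-23311759) has 2794 bases with 5, each with 2 in the last 1000 bases, whereas BCL2A1 (chr15:79960889-79971446) has 178 bases and none. Among 9448 genes, 81.1% had at least 1 pentamer in the last 1000 bases of the UTR, 40.6% had at least 3, and 5.38% had the nonamer in that window. The pentamers of MCL1 nearest its end, and the nonamer of BCL2, are shown with the motif in capitals.
MCL1, 625 bases from the end (chr1:150575163-150575192): cataagccgcttATTTAtatcatgtatctc
MCL1, 653 bases from the end (chr1:150575191-150575220): ttttacctatgtATTTAtcgttcttgatca
BCL2, 5017 bases from the end (chr18:63128352-63128381): aaaaaaagatTTATTTATTtaagacagtcc
A match is a description of these letters and was not tested against the measured changes.

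The 33 libraries held 16985219 to 22859779 counted reads. Levels are given as CPM, each gene's reads scaled to a common library size after TMM normalization, which corrects for a few abundant genes. Since a CPM depends on where reads arise, levels are compared between libraries for 1 gene and not between genes. The labelled lines matched their marker genes: 14 genes typical of MDA-MB-231 had library medians of 100 to 252 CPM in that line, against 1.27 to 3.18 in the other, and 19 epithelial genes typical of MDA-MB-468 had 152 to 221 CPM in their line, against 0.0506 to 1.04. A list of 10 immune cell genes summed to between 3.76 and 69.5 CPM over all libraries, with MS4A1 at 0 reads in all of them. The share of counts from the 13 mitochondrially encoded mRNAs, which the mitochondrial polymerase makes, moved with treatment: in MDA-MD-231 it was 2.51% with DMSO against 5.05% for 12 h SY200/V50, and in MDA-MD-468 3.93% against 13.5%. Its part in the results was not tested. Every test of a member was recomputed with libraries scaled to these mRNAs. That scaling moved the median change of all genes to -0.44 (SY200), -0.92 (V50) and -1.33 (SY200/V50) on the log2 scale, against -0.01, -0.0039 and 0.09 with TMM, so each change below is relative to the bulk of mRNAs. Calls under SY200/V50 over the times were 4532 higher and 4582 lower with TMM and 171 higher and 15661 lower with mitochondrial scaling, and under V50 they were 1972 and 2253 against 309 and 13964. In bulk libraries, fewer cells with a transcript and less transcript per cell cannot be told apart.

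MCL1, whose product is a short-lived protein that restrains BAK1, fell with V50 and fell further with SY200/V50. In MDA-MD-231 it stood at 490 CPM with DMSO and 444 CPM in the parental library. There, V50 left 69.5 CPM at 3 h, 125 CPM at 6 h and 401 CPM at 12 h, and SY200/V50 left 59.5, 59.1 and 22.3 CPM at the same times. SY200 gave 242, 552 and 499 CPM. So V50 alone lowered the transcript to 14.2% of DMSO at 3 h with a return to 81.7% by 12 h, while under SY200/V50 it remained at 12.1%, 12.1% and 4.54% of DMSO. The last value still rests on 289 reads.

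In MDA-MD-468, MCL1 began at 433 CPM with DMSO and 380 CPM in the parental library. V50 gave 183, 328 and 546 CPM at 3, 6 and 12 h, SY200/V50 gave 123, 151 and 154 CPM, and SY200 gave 236, 427 and 505 CPM. SY200/V50 was again lowest at each time, with shallower minima than in the other line: V50 reached 42.3% of DMSO at 3 h and 126% at 12 h, and SY200/V50 held 28.4%, 34.9% and 35.5%. Across both lines all 6 SY200/V50 libraries (22.3 to 154 CPM) lay below all 4 controls (380 to 490 CPM). Here and for the members below, the share of all genes that separate from the controls was not counted. Under SY200/V50 48.2% of genes were called over the times. The V50 libraries overlapped the controls, and at 3 h every treated library, SY200 included, was below every control.

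**Figure D1:**
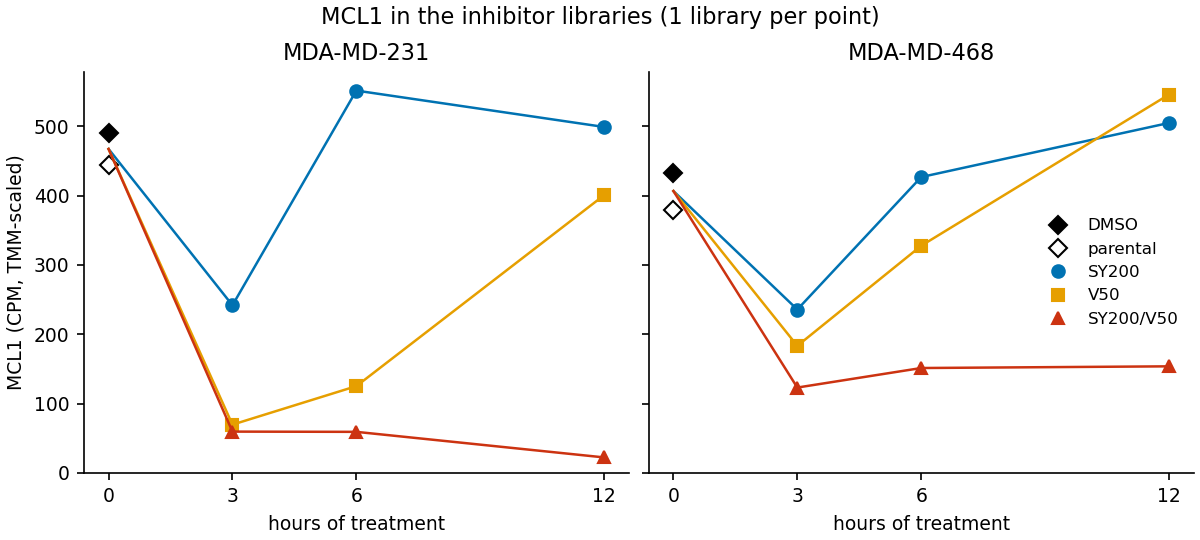
MCL1 level in TMM-scaled CPM (vertical axis) against hours of treatment (horizontal axis) in each line, 1 point per library, each course starting from the mean of the DMSO and parental libraries. SY200/V50 stays low in both lines, ending at 22.3 CPM in MDA-MD-231 and 154 CPM in MDA-MD-468, while V50 and SY200 return to 401 CPM or more at 12 h.

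Averaged over the times and with cell line as a block, MCL1 changed by -2.41 ± 0.35 (log2, SE) under SY200/V50, 5.30-fold lower than the controls (edgeR quasi-likelihood test, BH-adjusted p = 3.23e-05). The fall was called at 3 h (-2.40 ± 0.52, edgeR adjusted p = 0.00999), 6 h (-2.22 ± 0.51, 0.00341) and 12 h (-2.59 ± 0.53, 0.000713). V50 alone gave -1.02 ± 0.34, a 2.02-fold reduction (edgeR adjusted p = 0.0402), which passed at 3 h (-1.96 ± 0.51, 0.0378) but not at 6 h (-1.12 ± 0.48, 0.101) or 12 h (0.04 ± 0.46, 0.964). Within V50, MCL1 rose between 3 and 12 h by 2.01 ± 0.55 (edgeR adjusted p = 0.0235), while SY200/V50 gave -0.19 ± 0.53 (0.843); the difference between these courses was not tested. With mitochondrial scaling the SY200/V50 change between 3 and 12 h was -1.43 and called (edgeR adjusted p = 0.0215). In that scaling the median of all genes for the same comparison was -1.13, with 10440 of 18911 genes called lower. For SY200 the mean change was -0.18 ± 0.34 (0.842) and the 3 h change -0.89 ± 0.47 (0.464), neither past the threshold.

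The combination was lower than each agent. MCL1 differed by -2.23 ± 0.33 between SY200/V50 and SY200 (edgeR adjusted p = 4.75e-05) and by -1.39 ± 0.31 between SY200/V50 and V50 (0.00565). The gap to V50 was called at 12 h, with -2.63 ± 0.57 (0.00188), whereas at 3 h it was -0.43 and at 6 h -1.10 (0.894), not called. Against the sum of the effects of SY200 and V50, the combination was lower by 1.21 ± 0.46, which did not pass (edgeR adjusted p = 0.126). V50 and SY200 differed by -0.84 ± 0.31, also not called (0.102).

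The mean SY200/V50 fall in MCL1 kept its call when any 1 of the 22 libraries was left out (-2.94 to -2.12). The V50 mean stopped passing when any of 6 libraries was removed: from MDA-MD-231 the DMSO, parental or any V50 library, from MDA-MD-468 that of V50 at 12 h (-1.20 to -0.84, largest edgeR adjusted p 0.126). The V50 call at 3 h needed both DMSO and parental libraries of MDA-MD-231 and both V50 3 h libraries, the V50 rise from 3 to 12 h needed all 4 V50 libraries of those times (1.65 to 2.47), and the SY200/V50 call at 3 h needed both of its libraries. Without the MDA-MD-231 library the SY200/V50 change at 6 h was -1.88 (edgeR adjusted p = 0.0751), and without the MDA-MD-468 library that at 12 h was -4.27. In a fit without the line block, the mean change and the 12 h change under SY200/V50 kept their calls, while those at 3 h (-2.26, edgeR adjusted p = 0.333) and 6 h (-2.05, 0.123) did not. That fit also ended the calls against SY200 at 6 h (-2.22) and 12 h (-2.51, edgeR adjusted p = 0.0586) and against V50 at 12 h (-2.43, 0.0839). With DESeq2 size factors the V50 change at 3 h was -1.93 (edgeR adjusted p = 0.0501).

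BCL2, the founding member of the family, fell with SY200/V50 at 6 and 12 h. In MDA-MD-231 it was at 18.8 CPM with DMSO and 22.3 CPM in the parental library, and SY200/V50 gave 16.3, 10.9 and 5.93 CPM at 3, 6 and 12 h. V50 gave 16.6, 10.4 and 25.3 CPM and SY200 gave 19.4, 20.1 and 29.02 CPM. In MDA-MD-468 the controls were at 13.03 and 12.6 CPM, SY200/V50 at 6.71, 6.01 and 4.79 CPM, V50 at 7.31, 6.50 and 12.4 CPM, and SY200 at 7.85, 8.61 and 17.3 CPM. Within each line all 3 SY200/V50 libraries lay below both controls, and the 2 lowest values, at 12 h, rest on 77 and 73 reads.

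Under SY200/V50, BCL2 fell by 1.07 ± 0.16 over the times (edgeR adjusted p = 5.25e-05), with -0.62 at 3 h (0.101), -1.003 ± 0.23 at 6 h (0.00332) and -1.59 ± 0.24 at 12 h (5.39e-05). The decline from 3 to 12 h was itself called (-0.97 ± 0.27, edgeR adjusted p = 0.0185), but not once the MDA-MD-231 sample of 3 h (-0.76) or of 12 h (-0.64) was left out. V50 gave -0.98 ± 0.23 at 6 h (0.00681), which needed the MDA-MD-231 library of that time, and 0.12 at 12 h. Its mean of -0.47 ± 0.16 (edgeR adjusted p = 0.0463) lost its call in 14 of the 22 fits with a library left out. BCL2 was lower with SY200/V50 than with SY200 (-1.003 ± 0.15, 5.72e-05) and than with V50 (-0.60 ± 0.15, edgeR adjusted p = 0.0101).

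BCL2L1, which encodes BCL-XL and its short isoform, showed a shallow fall with SY200/V50. In MDA-MD-231 it was at 400 CPM with DMSO and 454 CPM in the parental library, at 384, 330 and 230 CPM with SY200/V50, at 401, 389 and 581 CPM with V50, and at 376, 427 and 494 CPM with SY200. In MDA-MD-468 the controls were at 111 and 110 CPM, SY200/V50 at 85.2, 69.3 and 90.0 CPM, V50 at 99.5, 117 and 128 CPM, and SY200 at 92.0, 128 and 140 CPM. Each SY200/V50 library lay below its line's controls, while those of V50 and SY200 lay on both sides of them. 3′ tags do not separate the BCL2L1 isoforms.

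The SY200/V50 fall in BCL2L1 averaged 0.45 ± 0.12 on the log2 scale (edgeR adjusted p = 0.00439) and was called at 6 h (-0.51 ± 0.16, 0.0199) and 12 h (-0.57 ± 0.16, 0.00761) but not at 3 h (-0.26, 0.345). The 6 h call was lost without the MDA-MD-468 library (-0.36) and the 12 h call without the MDA-MD-231 library (-0.30), and the 12 h value was -1.07 without the MDA-MD-468 library. SY200 and V50 alone gave 0.05 and 0.06, not called. BCL2L1 was lower under SY200/V50 than under SY200 (-0.50 ± 0.10, edgeR adjusted p = 0.00099) and than under V50 (-0.51 ± 0.10, 0.00346). It was the only member called below the sum of the effects of the agents (-0.56 ± 0.16, 0.0482), and 19 of the 22 fits with a library left out lost that call.

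BCL2L2, which encodes BCL-W, stood higher with SY200/V50 than with either agent alone, averaged over the times and at 12 h, when libraries were scaled by TMM. In MDA-MD-231 it was at 28.9 CPM with DMSO and 33.9 CPM in the parental library. SY200/V50 gave 39.7, 44.8 and 54.0 CPM there, against 40.3, 36.5 and 11.9 CPM with V50 and 35.0, 16.9 and 15.2 CPM with SY200. The 12 h libraries of MDA-MD-231 thus ran apart, above the controls with SY200/V50 and below them with V50 and SY200. In MDA-MD-468 the spread was narrower, with 44.3 and 40.0 CPM in the controls, 48.6, 51.5 and 39.8 CPM with SY200/V50, 44.9, 41.5 and 29.5 CPM with V50, and 40.0, 38.9 and 29.6 CPM with SY200.

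The SY200/V50 change of BCL2L2 against control was 0.36 ± 0.21 and was not called (edgeR adjusted p = 0.159). Scaled to the mitochondrially encoded mRNAs it was -1.06 and called lower (edgeR adjusted p = 0.000324), so its direction depends on the scaling. V50 at 12 h gave -0.89 ± 0.29 (0.0458, lost in 14 of 22 fits with a library left out), and under V50 BCL2L2 fell between 3 and 12 h by 1.12 ± 0.32 (edgeR adjusted p = 0.0310, a call that needed both V50 libraries of 3 h and that of MDA-MD-231 at 12 h). At 12 h BCL2L2 was higher with SY200/V50 than with SY200 by 1.16 ± 0.33 (0.00807) and than with V50 by 1.30 ± 0.33 (edgeR adjusted p = 0.00535), the first of which became -0.47 with mitochondrial scaling. With the 12 h SY200/V50 library of MDA-MD-231 left out these differences were 0.62 and 0.80, neither called, and they were also lost without the MDA-MD-231 12 h library of the agent compared. Over the times BCL2L2 was higher with SY200/V50 than with SY200 by 0.75 ± 0.19 (edgeR adjusted p = 0.00349), which turned to -0.25 with mitochondrial scaling, and than with V50 by 0.55 ± 0.19 (0.0455), which 16 of the 22 fits with a library left out lost. In 6 other ways of processing, this difference from V50 was as low as 0.034, and 4 of them lost its call. The difference from V50 at 12 h was as low as 0.28 in them, and 2 lost its call. Reads of the overlapping readthrough gene BCL2L2-PABPN1 numbered 0 to 10 per library.

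**Figure D2:**
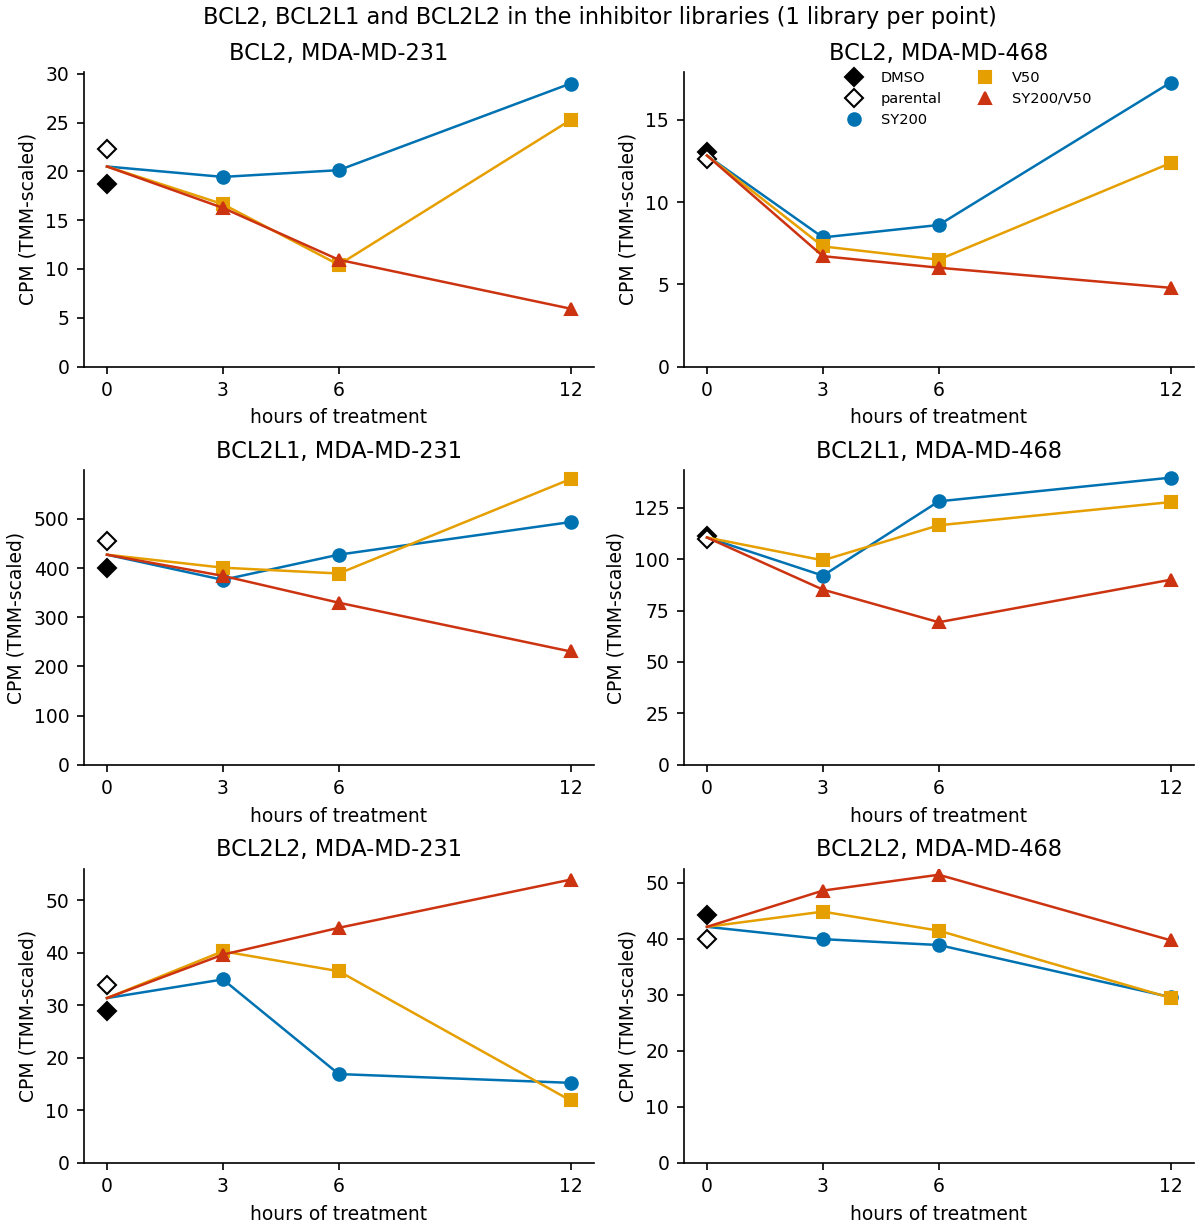
Levels of BCL2, BCL2L1 and BCL2L2 in TMM-scaled CPM (vertical axes, 1 scale per panel) against hours of treatment in each line, 1 point per library, starting from the mean of DMSO and parental. BCL2 ends lowest with SY200/V50 (5.93 and 4.79 CPM at 12 h), and BCL2L2 in MDA-MD-231 separates at 12 h into 54.0 CPM with SY200/V50 and 11.9 CPM with V50.

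BCL2A1, which encodes BFL-1 and is known mainly from haematopoietic cells, was close to absent. Inhibitor libraries held 0, 1 or 2 reads each, at or under the floor of 3 reads, and the filter on low counts removed the gene from the main fit. Fitted without that filter, it was called in no inhibitor comparison or comparison of the lines (edgeR adjusted p from 0.296 to 1), which at this depth does not show that its level was the same. Its values in the knockout libraries are given with that experiment.

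Counting calls over the 4 members tested, SY200/V50 had 3 lower and 0 higher over the times, where 48.2% of the 18911 genes tested were called. V50 had 2 lower, with 22.3% of genes called. SY200 had 0 with edgeR, 0 at an unadjusted p under 0.05 and 0 with DESeq2, with 1.98% of genes called. At 3, 6 and 12 h, SY200/V50 had 1, 3 and 3 members called beside 7.54%, 34.7% and 49.6% of genes, and V50 had 1 at each time beside 4.1%, 23.4% and 15.2%. SY200 had 0 called by edgeR or DESeq2 at each time, with 0, 0 and 2 at an unadjusted p under 0.05, beside 0.423%, 0.264% and 2.43% of genes. Under SY200/V50 a call was thus common among all genes at 6 and 12 h.

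In the comparisons between treatments, all 4 members were called between SY200/V50 and SY200 over the times, where 46% of genes were, and all 4 between SY200/V50 and V50, where 19.9% were. Against SY200 there were 0 at 3 h (1 at an unadjusted p under 0.05, 0 with DESeq2, 0.1% of genes called by edgeR), 2 at 6 h (18.4%) and 4 at 12 h (45.3%). Against V50 there were 0 at 3 h (0 unadjusted, 0 with DESeq2, 0.00529% of genes), 0 at 6 h (1 unadjusted, 0 with DESeq2, 0.0106%) and 4 at 12 h (37.6%). For the sum of the effects 1 member was called, with 5.04% of genes. V50 against SY200 gave 0 members with edgeR, 2 at an unadjusted p under 0.05 and 1 with DESeq2, with 8.3% of genes called. Between 3 and 12 h, 0 members were called for SY200 (3 unadjusted, 1 with DESeq2, 1.95% of genes), 2 for V50 (12.8%) and 1 for SY200/V50 (18.3%). These comparisons share control or treated libraries, so their calls are not separate pieces of evidence.

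**Figure D3:**
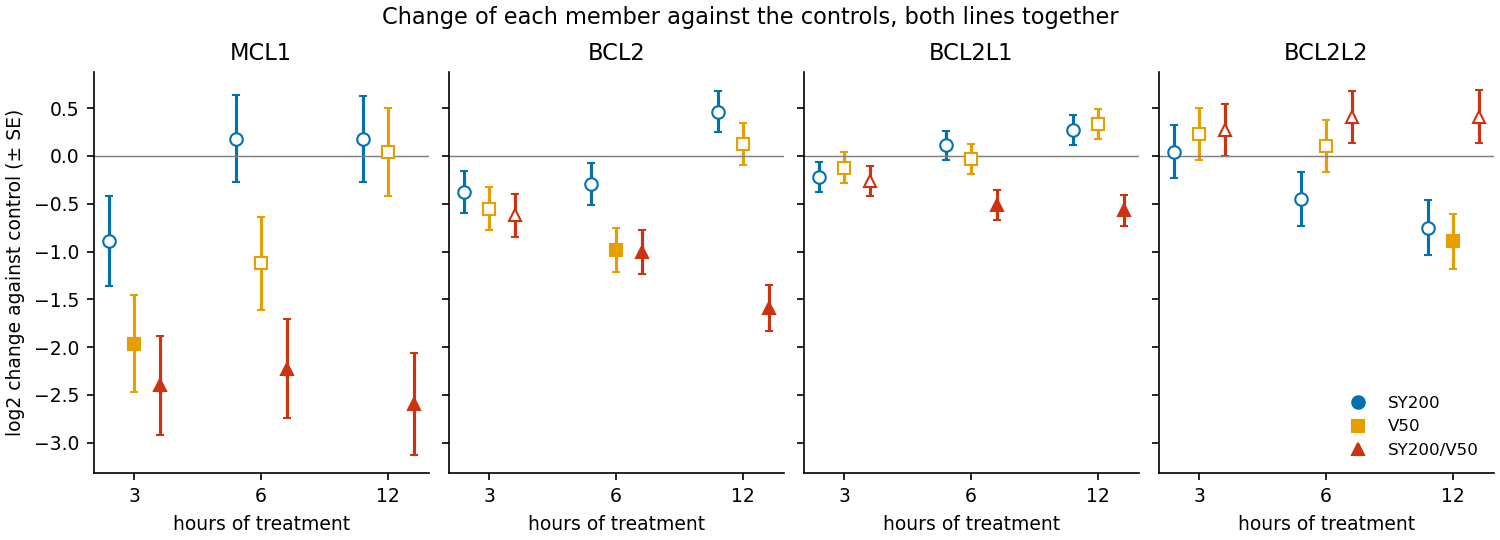
Log2 change against the 4 control libraries with its SE (vertical axis) for MCL1, BCL2, BCL2L1 and BCL2L2 at 3, 6 and 12 h of each treatment (horizontal axis), filled where the edgeR BH-adjusted p is under 0.05. MCL1 under SY200/V50 stays between -2.59 and -2.22 at all times, whereas under V50 it goes from -1.96 to 0.04.

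The balance of MCL1 against the other members was read as a ratio of reads within a library, which no library scaling can alter. Set to 1 in the DMSO library of MDA-MD-231, the MCL1 to BCL2L1 ratio was 0.126, 0.146 and 0.0789 with SY200/V50 at 3, 6 and 12 h, a 12.7-fold reduction at 12 h. V50 took it to 0.142, 0.263 and 0.563 and SY200 to 0.525, 1.05 and 0.825. In MDA-MD-468, SY200/V50 gave 0.370, 0.559 and 0.438, V50 gave 0.472, 0.721 and 1.10, and SY200 gave 0.657, 0.854 and 0.927. The balance moved from MCL1 to BCL2L1 in every SY200/V50 library, further in MDA-MD-231.

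Against BCL2L2 the shift in MDA-MD-231 was larger, with 0.0882, 0.0777 and 0.0243 under SY200/V50, a 41.2-fold reduction at 12 h, while V50 alone went from 0.102 at 3 h to 1.98 at 12 h. In MDA-MD-468 SY200/V50 gave 0.259, 0.300 and 0.395, and V50 went from 0.418 to 1.89. At 12 h the ratio was therefore above DMSO with V50 and below it with SY200/V50 in each line. Against BCL2, MDA-MD-231 gave 0.140, 0.207 and 0.144 under SY200/V50, but MDA-MD-468 gave 0.551, 0.757 and 0.966, so that in this line MCL1 and BCL2 were down by a like factor at 12 h. No test was made of these ratios.

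**Figure D4:**
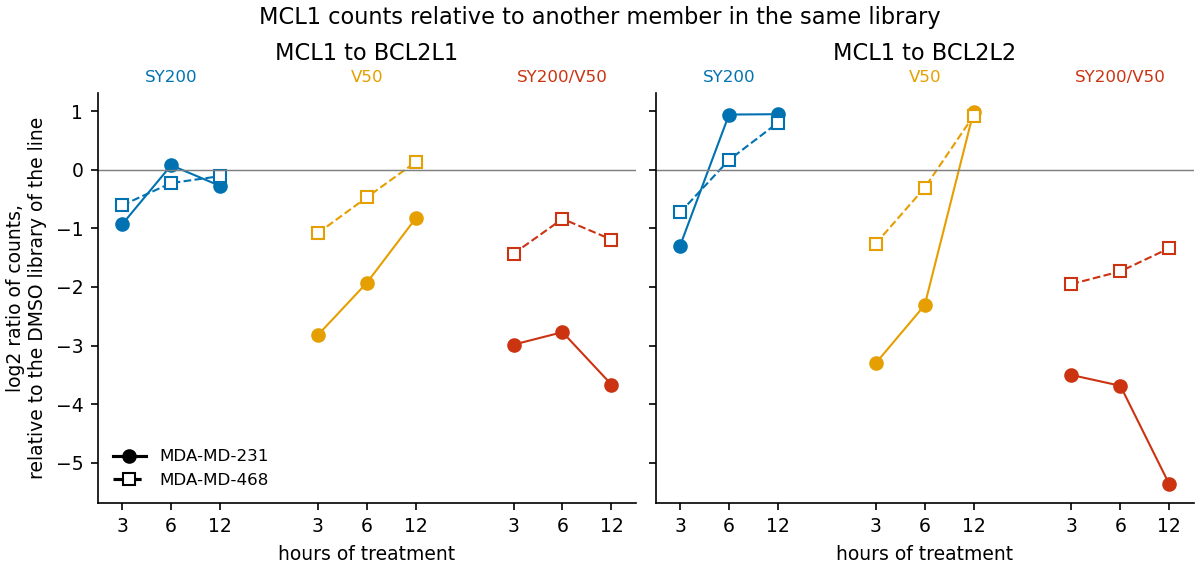
Log2 ratio of MCL1 reads to BCL2L1 reads and to BCL2L2 reads, relative to the DMSO library of the line (vertical axes), against hours of treatment, 1 point per library. With SY200/V50 every point lies below 0 in both lines, and in MDA-MD-231 at 12 h the ratio to BCL2L2 was 41.2-fold below DMSO.

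The lines differed in where the members began. In control libraries BCL2L1 was 3.86-fold lower in MDA-MD-468 than in MDA-MD-231 (log2 -1.95 ± 0.19, edgeR adjusted p = 8.28e-07), and BCL2 was lower by 0.68 ± 0.25 (0.0344), a call that 6 of the 22 fits with a library left out lost. MCL1 differed by -0.20 ± 0.30, not called (edgeR adjusted p = 0.596), but by -0.91 and called with mitochondrial scaling. That made 2 members called, where 53.8% of genes were called between the lines. The fall of MCL1 under SY200/V50 was smaller in MDA-MD-468 by 1.90 ± 0.40 on the log2 scale, which did not pass after adjustment (edgeR adjusted p = 0.0778) but did with DESeq2 (2.01, adjusted p = 0.00398). For V50 the difference was 1.28 ± 0.39 (edgeR adjusted p = 0.314) and for SY200 it was 0.07. Of the 4 members, 0 were called for SY200 (0 at an unadjusted p under 0.05, 0 with DESeq2), 0 for V50 (1 and 0) and 0 for SY200/V50 (1 and 1), and edgeR called 0% of genes in each of these tests between lines, where 1048, 1873 and 3009 genes had an unadjusted p under 0.05 and DESeq2 called 35, 120 and 401.

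Over the 22 inhibitor libraries, each gene centred within its line, MCL1 moved with BCL2 (Pearson r 0.81) and BCL2L1 (0.79) and against BCL2L2 (-0.77). Scaled to mitochondrially encoded mRNAs these values were 0.91, 0.92 and 0.25. The points share libraries, treatments and scaling, so r is a description only. Among 9790 genes, those whose course was most like that of MCL1 were C2orf69 (0.981), TRIM13 (0.976), STK17B (0.975), ELF2 (0.975) and C2orf49 (0.974), with the 99th percentile of all genes at 0.938. For BCL2 the leading genes were ZHX3 (0.958), MAP3K4 (0.957) and SGMS1 (0.9498), for BCL2L1 C4orf46 (0.959), MRPL44 (0.944) and ZBTB17 (0.937), and for BCL2L2 TMEM65 (0.965), WDFY1 (0.960) and ZDHHC16 (0.948). With mitochondrial scaling C2orf49, SGMS1, MRPL44, ZBTB17 and all genes named for BCL2L2 were no longer among the leading genes. Over the knockout libraries, r with MCL1 was 0.46 for C2orf69, 0.20 for TRIM13, -0.31 for STK17B, -0.48 for ELF2 and 0.62 for C2orf49.

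The partners of these proteins were described from lists of genes. Among 8 BH3-only genes, the antagonists of the anti-apoptotic proteins, SY200/V50 lowered 5 and raised 2, with a median log2 change of -1.10 beside 0.09 for all genes. For this and each list that follows, 48.2% of all genes were called in the same comparison, and a list's share near that is no result about the list. BBC3 (PUMA) changed by -2.76 ± 0.40 (edgeR adjusted p = 3.41e-05), as much as MCL1, and BMF by -2.52 ± 0.39 (6.61e-05). BIK changed by -1.74 ± 0.37 (edgeR adjusted p = 0.000926), BCL2L11 (BIM) by -1.36 and PMAIP1 (NOXA, which binds MCL-1) by -0.84, each called. BAD, which binds BCL-2, BCL-XL and BCL-W, was called higher with TMM scaling (0.68 ± 0.15, 0.00153) but lower (-0.75) with mitochondrial scaling, and BID turned likewise from 0.66 to -0.79. V50 lowered 3 of the 8, beside 22.3% of all genes called, and SY200 0, beside 1.98%.

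Of the 3 effectors, SY200/V50 lowered BAK1, which MCL-1 and BCL-XL restrain (-1.08 ± 0.17, edgeR adjusted p = 5.66e-05), and BAX gave 0.33 (0.152). The list's median was -0.28. Among 8 genes of MCL-1 protein turnover, 3 were lower and 1 higher, a share near that of all genes, with a median of -0.24: the ubiquitin ligase components BTRC (-1.30 ± 0.22, edgeR adjusted p = 0.00012) and FBXW7 (-1.57 ± 0.30, 0.000406) and the deubiquitinase USP13 (-0.53 ± 0.21, 0.0422) fell, and the ligase TRIM17 rose by 1.87 ± 0.62 (edgeR adjusted p = 0.0408) with TMM scaling, though not with mitochondrial scaling (0.42). TRIM17 lost its call in 5 and USP13 in 6 of the 22 fits with a library left out. The remaining BCL2 homologues and BNIP genes had 7 of 10 tested, with a median of 0.10. Of these, BNIP1 was lower (-1.18 ± 0.19, edgeR adjusted p = 8.79e-05) and BCL2L12 higher with TMM scaling (0.46 ± 0.13, 0.00785) and lower with mitochondrial scaling (-0.97).

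Downstream of the mitochondrion, the 5 caspase brakes had 3 lower and 1 higher under SY200/V50, with a median of -0.38. BIRC3 (cIAP2), an NF-kappaB target, was at -1.48 ± 0.21 (edgeR adjusted p = 2.51e-05), XIAP, which inhibits caspases directly, at -0.63 ± 0.17 (0.00505) and BIRC2 (cIAP1) at -0.38 ± 0.12 (0.0121). BIRC5 (survivin) was called higher with TMM scaling (0.54 ± 0.09, edgeR adjusted p = 0.00011) and lower with mitochondrial scaling (-0.89). Of the apoptosome components, APAF1 was lower (-1.35 ± 0.21, edgeR adjusted p = 5.31e-05), and CYCS, cytochrome c, was higher with TMM scaling (0.67 ± 0.10, edgeR adjusted p = 6.59e-05) and at -0.76 with mitochondrial scaling. The medians of the lists given so far, except the homologues, were below that of all genes.

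Among 11 transcription regulators, SY200/V50 lowered 5 and raised 2, with a median of -0.26. MYC, a short-lived mRNA like MCL1, was at -2.25 ± 0.39 (edgeR adjusted p = 0.000156), CREB1 at -1.43 ± 0.24 (0.000112) and the NF-kappaB subunit RELA at -0.76 ± 0.13 (0.000129). E2F1 was called higher with TMM scaling (0.93 ± 0.18, edgeR adjusted p = 0.000495) and was at -0.51 with mitochondrial scaling. SY200 alone changed 1 gene of these lists, BIRC3, which it lowered (-0.89), where 1.98% of all genes were called. That call was lost in 8 of the 22 fits with a library left out.

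In the knockout experiment the targeted transcripts were lower in the libraries labelled for them. CDK7 was at 15.3 and 13.7 CPM in CDK7 KO at 72 and 96 h and at 15.6 and 17.1 CPM in CDK7/9 KO, against 49.0 and 66.6 CPM with empty vector (-1.98 ± 0.14 and -1.81 ± 0.14, edgeR adjusted p = 0.000421 and 0.000975). CDK9 was at 33.2 and 36.4 CPM in CDK9 KO and 34.3 and 36.6 CPM in CDK7/9 KO, against 70.5 and 62.1 CPM (-0.93 ± 0.11 and -0.90 ± 0.11, edgeR adjusted p = 0.00409 and 0.00387). CDK1 was at 81.6 and 84.1 CPM in CDK1 KO against 178 and 283 CPM with empty vector (-1.46 ± 0.17, edgeR adjusted p = 0.0137), but the parental library, which carries no knockout by its label, had 84.2 CPM. At 96 h CDK1 was also at 141 CPM in CDK7 KO, 162 CPM in CDK9 KO and 150 CPM in CDK7/9 KO. The CDK7/9 KO change of CDK1 (-0.59) was called, and 9 of the 10 fits with a library left out lost that call. A 3′ tag can also come from an edited transcript, so a tag level checks a knockout only in part.

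MCL1 was not called in any knockout with both empty vector libraries in the fit. It was at 489 and 520 CPM with empty vector at 72 and 96 h, at 579 and 534 CPM in CDK9 KO, at 515 and 494 CPM in CDK7/9 KO, at 509 and 436 CPM in CDK7 KO and at 451 and 442 CPM in CDK1 KO. The parental library had 490 CPM, and all 11 values lie within 436 to 579 CPM. The CDK7/9 KO change was 0.00 ± 0.10 (95% interval -0.21 to 0.22), a range that does not reach the change under SY200/V50. The experiments differ in agent, time and control, and the difference between them was not tested. Scaled to mitochondrially encoded mRNAs, whose share was 2.60% and 3.77% with empty vector and 5.04% to 5.98% in CDK9 KO and CDK7/9 KO, MCL1 was called lower at -0.82 in CDK7/9 KO and -0.69 in CDK9 KO, beside a median of -0.81 and -0.82 for all genes. The empty vector libraries decide the smaller changes: without that of 72 h, MCL1 was called lower in CDK1 KO (-0.29, edgeR adjusted p = 0.00201) and CDK7 KO (-0.22, 0.0180), and without that of 96 h it was called higher in CDK9 KO (0.24, 0.0295).

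BCL2 was lowest in CDK1 KO, at 12.3 and 12.5 CPM against 16.6 and 22.8 CPM with empty vector, a difference of -0.65 ± 0.15 that did not pass (edgeR adjusted p = 0.0921). It was at 13.8 and 14.5 CPM in CDK7/9 KO (-0.47 ± 0.15, edgeR adjusted p = 0.0688), 16.5 and 14.4 CPM in CDK9 KO and 18.0 and 17.3 CPM in CDK7 KO. With no filter on low counts BCL2 was called in CDK1 KO (-0.68, edgeR adjusted p = 0.00106) and CDK7/9 KO (-0.51, 0.0159). DESeq2 also called BCL2 in CDK1 KO. With mitochondrial scaling BCL2 was called lower in CDK9 KO (-1.18) and CDK7/9 KO (-1.30), beside a median of -0.82 and -0.81 for all genes. Without the empty vector library of 72 h, it was called in CDK1 KO (-0.90, edgeR adjusted p = 4.28e-06), CDK7/9 KO (-0.72, 6.19e-05), CDK9 KO (-0.60) and CDK7 KO (-0.41), and without that of 96 h the CDK1 KO and CDK7/9 KO values were -0.40 (0.137) and -0.21 (edgeR adjusted p = 0.335). The parental library, at 15.5 CPM, was itself below both empty vector libraries. BCL2L1 was at 512 and 391 CPM with empty vector and between 451 and 563 CPM in all knockouts, with the largest change in CDK7 KO (0.31 ± 0.11, edgeR adjusted p = 0.228). Without the empty vector library of 72 h, BCL2L1 was called higher in all 4 knockouts (0.22 to 0.44), whereas with mitochondrial scaling of all 10 libraries it was called lower in CDK9 KO (-0.58) and CDK7/9 KO (-0.54). BCL2L2 was at 43.6 and 41.2 CPM with empty vector and lowest in CDK7 KO at 36.8 and 33.5 CPM (-0.27 ± 0.11, edgeR adjusted p = 0.256), which among the fits run was called only without the empty vector library of 72 h (-0.28, 0.0431).

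BCL2A1 had 6 and 10 reads with empty vector and 9 and 9 in CDK1 KO, against 0 and 1 in CDK7 KO, 1 and 2 in CDK9 KO and 1 and 1 in CDK7/9 KO, with 0 in the parental library. The CDK7 KO, CDK9 KO and CDK7/9 KO libraries lay below the empty vector libraries and did not overlap them. The share of all genes that separate in this way was not counted. Their counts are all under the floor of 3 reads, and the gene was removed by the filter on low counts. Fitted without that filter it was called in CDK7 KO (edgeR adjusted p = 0.0406) and CDK7/9 KO (0.0474) and not in CDK9 KO (0.166), while DESeq2 gave no adjusted p. Without the filter, edgeR called 996, 3212 and 2782 of 34037 genes in these knockouts. No fold is given, since it would rest on a few reads.

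Of the 4 members tested, 0 were called by edgeR in CDK1 KO (1 at an unadjusted p under 0.05, 1 with DESeq2), CDK7 KO (2 and 0), CDK9 KO (1 and 0) and CDK7/9 KO (2 and 0). The shares of the 16783 genes called were 0.352%, 0.0238%, 8.16% and 11.3%. These shares turn on 1 library: without the empty vector library of 72 h they were 39.7%, 35.5%, 39.8% and 41.8%, and with 96 h left out 2.38%, 1.34%, 12.2% and 14.7%. Of the partner lists, CDK7/9 KO had BMF (0.67, edgeR adjusted p = 0.037) and USP9X, a deubiquitinase of MCL-1 (0.37, 0.0377), higher and BNIP1 (-0.72, 0.0225) and BIRC3 (-0.62, 0.0456) lower, and CDK1 KO, CDK7 KO and CDK9 KO had no list gene called. Of the 10 fits with a library left out, 9 lost the call of BMF (0.36 to 0.97), 9 that of BIRC3 (-0.96 to -0.25), 8 that of USP9X (0.27 to 0.44) and 2 that of BNIP1 (-0.96 to -0.47).

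**Figure D5:**
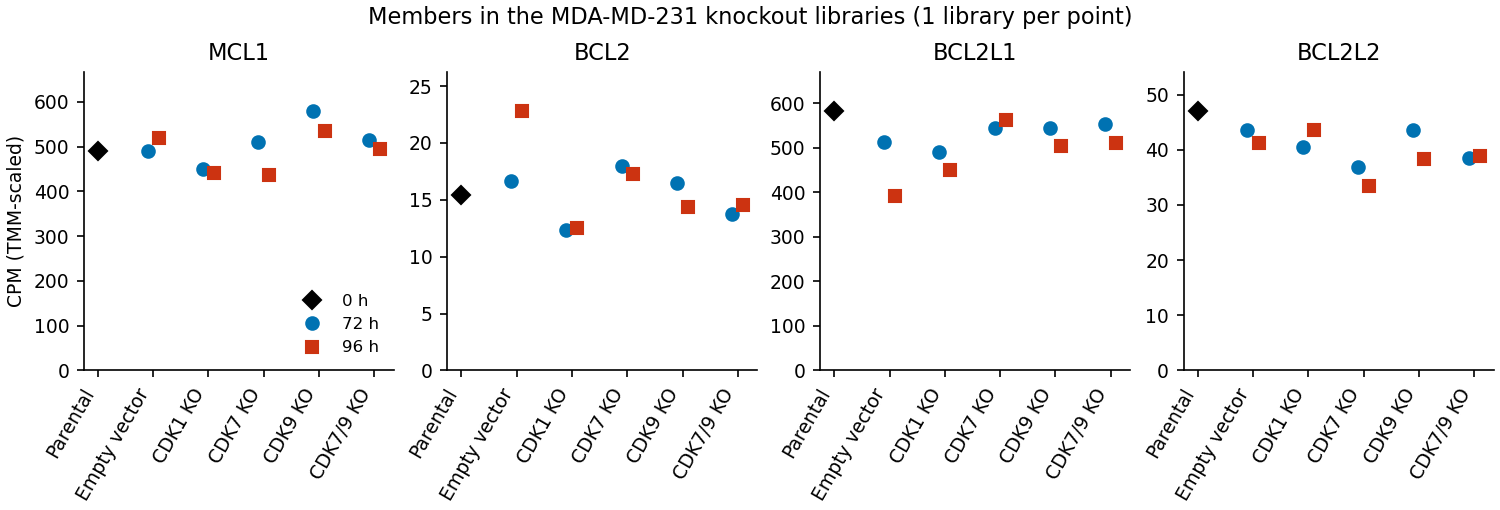
Levels of MCL1, BCL2, BCL2L1 and BCL2L2 in TMM-scaled CPM (vertical axes) in each of the 11 libraries of the knockout experiment (horizontal axis), 1 point per library with the times marked. MCL1 stays between 436 and 579 CPM, and BCL2A1 is not drawn.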

How the data were processed

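The authors deposited unnormalized whole-number counts of reads for each gene and library. Per the submitters' processing notes, STAR 2.7.10a, FastQC and GRCh38 were used. Not given in the sources are the counting tool, annotation, strand setting and any molecular identifiers, and reads without such identifiers are not independent molecules.

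Counts were tested with edgeR 4.0.16 in R 4.3.3 (filterByExpr at a count of 10 and a total of 15, TMM scaling, quasi-likelihood F test, Benjamini-Hochberg threshold 0.05 over all genes tested). The inhibitor model blocked on cell line and had 10 condition levels, with DMSO and parental libraries pooled as 4 controls (11 residual degrees of freedom), and 18911 genes. DMSO and parental libraries of a line differed beyond counting noise (chi-square over its degrees of freedom 40.1 and 24.8). A model with line terms compared the lines (8 residual degrees of freedom). The knockout model used genotype and time across 10 libraries (4 residual degrees of freedom) and 16783 genes, and its parental library stayed outside the fit. DESeq2 1.42.0 was an alternative.

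The members and gene lists were chosen with earlier results of these data known. The members were always named; each list gave up to 4 genes with the smallest adjusted p for SY200/V50 among those called, or 2 where fewer than 2 were called, and further genes carry their values. Some genes of 1 list are not reported here. Likeness was Pearson's r of log2 CPM (prior count 2) centred within line, over genes with a mean of at least 10 CPM.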

Additional observations from a re-analysis of the deposited data

Results flagged for a closer look

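In the parental library of the knockout experiment, which entered no comparison, BCL2L1 was at 583 CPM, above both empty vector libraries (512 and 391 CPM). BCL2L2 was at 47.0 CPM in the same library, also above both empty vector libraries (43.6 and 41.2 CPM). It is 1 library taken at 0 h, and neither difference was tested.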

How the results depend on the processing

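With 1 library left out, 2689 of 2832 recomputed results kept direction and side of the threshold, 105 lost a call, 38 gained one and 0 reversed. Under the other alternatives these were 714, 53, 34 and 15 of 816 (a sign that flipped with no call on either side counts as kept). The models already match libraries by line (inhibitors) or time (knockouts). No paired analysis was possible by replicate number because the labels number no libraries across groups.

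The SY200/V50 mean for MCL1 kept its call in all of them (-3.81 to -2.12). The V50 mean for MCL1 lost its call with DESeq2 size factors (-0.996), no filter (-1.03), DMSO alone as control (-1.12) and no line block (-0.87), and ranged from -1.20 to -0.84 with a library left out. Without the line block, MCL1 lost its calls for SY200/V50 against V50 (-1.33) and V50 at 12 h against 3 h (1.90), beside those at single times given above, the second ranging from 1.65 to 2.47 with a library left out.

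All 15 reversals came from scaling to mitochondrially encoded mRNAs. For BCL2L2 these were SY200/V50 over the times (-1.06), at 6 h (-1.03), at 12 h (-1.58), at 12 h against 3 h (-1.02), against SY200 over the times (-0.25) and at 12 h (-0.47), and V50 at 6 h (-0.88). For BCL2L1 they were V50 over the times (-0.85), at 12 h (-0.65) and against SY200 (-0.48), CDK9 KO (-0.58) and CDK7/9 KO (-0.54), for BCL2 V50 at 12 h (-0.87), and for MCL1 CDK9 KO (-0.69) and CDK7/9 KO (-0.82).

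Members called over the times with V50 numbered 0 with DESeq2 size factors, no filter, DMSO alone or no line block, 4 with mitochondrial scaling and 0 to 2 with a library left out. SY200 had 1 with mitochondrial scaling and SY200/V50 had 1 without the line block. CDK1 KO had 1 with no filter and with DESeq2 and 0 to 3 with a library left out, CDK7 KO 1 with no filter and 0 to 5, CDK9 KO 4 with mitochondrial scaling and 0 to 3, and CDK7/9 KO 2 with no filter, 4 with mitochondrial scaling and 0 to 3. The cause of these changes was not tested. Mitochondrial scaling called 14273 of 18911 genes for V50, 5299 for SY200, and 11411 and 11138 of 16783 for CDK9 KO and CDK7/9 KO. A call was thus common among all genes with it, though less so for SY200 than for the others. With no filter, 3227 of 37245 genes were called for V50. In CDK1 KO, CDK7 KO and CDK7/9 KO that number was 1742, 996 and 3212 of 34037. DESeq2 size factors called 4410 of 18911 for V50, and DESeq2 called 423 genes for CDK1 KO. Depth limits BCL2A1 and, at 12 h of SY200/V50, BCL2.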
